A study of Mus musculus with 9 samples.

Results

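The genes described here are 60 genes of the Wnt pathway, taken by name from a table of 47729 mouse genes. They comprise 19 Wnt ligands, 15 receptors, 10 secreted inhibitors, 7 genes of the R-spondin module and 9 nuclear effectors and feedback targets, and all 60 were found. Their expression was followed in mouse embryonic stem cells (ESCs), pluripotent cells of the early embryo, in which a forced homodimer of the transcription factor E2A was induced with doxycycline (dox). All cells, at 0 h too, carried the same dox-dependent transgene next to Hprt. Its product is a single FLAG-labelled chain of 2 mouse E47 copies, E47 being a splice form of E2A, and a tetracycline-response element drives it. They were cultured in LIF/serum. The times used here are those of the sample titles and treatment entries, 18 h and 24 h, which are also the times that the study describes. The treatment protocol that accompanies the samples names 24 h and a later time instead. The 0 h cells received no dox, and the 18 h and 24 h cells received dox at 1 µg/ml, with 3 replicates at each time point and 9 libraries in all. Cells treated with dox but lacking the transgene were not analysed here, so an effect of dox, or of time in culture, cannot be told apart from that of the E2A homodimer.

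Wnt proteins are lipid-modified secreted ligands. In the canonical branch they bind a Frizzled receptor together with the co-receptor Lrp5 or Lrp6, which stops the destruction complex built on Axin from marking β-catenin for degradation, and β-catenin then works with the TCF/LEF factors on DNA. Many targets of this branch are themselves parts or inhibitors of the pathway, which makes them feedback genes. Other Wnt proteins signal through Ror1, Ror2 or Ryk without β-catenin. In ESCs canonical Wnt signalling supports self-renewal, whereas in the embryo it promotes primitive streak and posterior fates.

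Expression levels are given in FPKM (fragments per kilobase of gene scaled to the number of reads mapped), which is scaled for length and so allows levels of different genes to be compared. Each library held between 22028363 and 26471569 reads on genes. Changes were tested with limma on log2(FPKM+0.1) across 17951 genes, and a gene was called when its Benjamini–Hochberg adjusted p (Padj) was at most 0.05 and its absolute log2 fold-change (log2FC) was at least 1. Blocked Padj is that of a limma fit with replicate number as a further term, and Padj alone is that of limma without it. Libraries that share a replicate number tended to depart from their time-point means in the same direction, with correlations between 0.211 and 0.548. A blocked fit, in which the replicate number is a term, is therefore given beside the fit without it where it changes the call of a gene described. Tcf3, which encodes E2A, stood between 37.7 and 41.2 FPKM at 0 h and between 93.6 and 116 FPKM in the 6 libraries with dox, and some of these reads may come from the transgene, which is of mouse sequence. Of 7 ESC markers none was called, with 3 above 0 and 4 below at 24 h. Pou5f1 was at 226 FPKM or more in all 9 libraries, with a log2FC of -0.58 at 24 h (limma Padj = 0.0220), and Nanog was at 34.5 FPKM or more with a log2FC of 0.86 (limma Padj = 0.00735). In these bulk samples, fewer cells expressing a gene and less RNA per cell cannot be told apart.

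Of the 60 genes, 52 had a mean of at least 0.1 FPKM and were tested. Wnt1 was listed at 0 FPKM in every library, and Wnt8b, Wnt9b, Wnt16, Dkk2, Wif1, Rspo2 and Lgr5 had means between 0.0262 and 0.0846 FPKM. Wnt2, Wnt11 and Frzb had a 0 h mean under 0.1 FPKM and passed this filter through their libraries with dox. The highest levels among these genes were those of some receptors and nuclear effectors, and not of ligands. Other receptors and feedback targets, such as Fzd3 (mean 0.798 FPKM) and Nkd1 (1.04 FPKM), lay below ligands such as Wnt8a (4.01 FPKM). No ligand reached a mean of 10 FPKM, and 6 of the 19 reached 1 FPKM. Of the receptors, 11 of 15 reached 1 FPKM and 4 reached 10 FPKM, and all 9 nuclear effectors and feedback targets reached 1 FPKM.

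**Figure D1:**
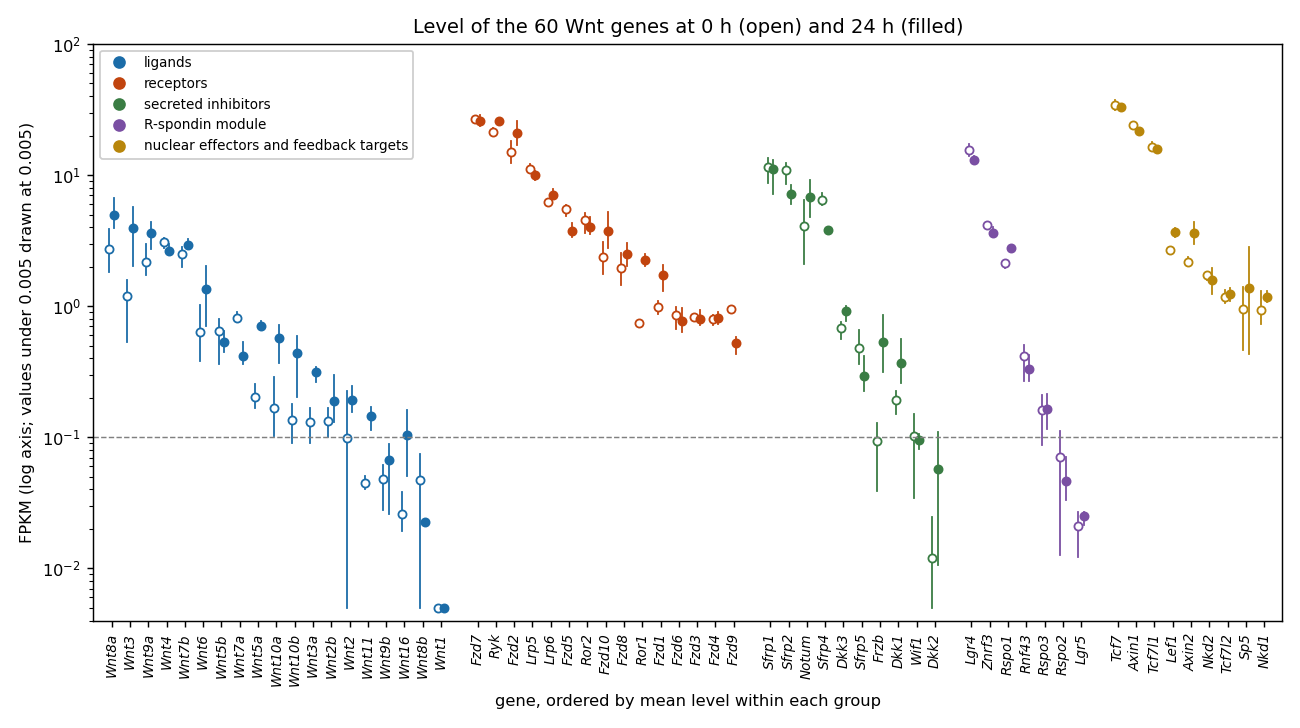
Mean level of each of the 60 genes in FPKM on a log axis, at 0 h (open circles) and 24 h (filled circles), with vertical lines from the lowest to the highest of the 3 libraries; the dashed line marks the 0.1 FPKM filter. The ligands reach at most 6.65 FPKM in the libraries drawn, for Wnt8a, whereas Fzd7, Ryk, Tcf7 and Axin1 sit above 20 FPKM.

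The calls among these genes were few. At 18 h compared with 0 h, 2 of the 52 were called higher (Ror1 and Wnt11), when 1.33% of all genes tested were called higher, and none was called lower against 0.724% of all genes. At 24 h compared with 0 h, 4 were called higher (Wnt5a, Wnt10a, Ror1 and Frzb) against 2.07% of all genes, and none was called lower against 0.836%. Wnt11 and Frzb passed the filter only through their libraries with dox, so the filter itself favoured their calls as higher. With the replicate block, 3 were called higher at 18 h and 6 at 24 h, against 1.71% and 2.34% of all genes. The added genes were Wnt3 at both times and Wnt10b at 24 h, and again no member was called lower, against 1.11% of all genes at 18 h and 1.17% at 24 h. Before adjustment, limma gave 8 members that were lower with p under 0.05 at each time, where 12.3% of all genes were at 18 h and 13.2% at 24 h, and neither edgeR nor DESeq2 called any member lower. edgeR's quasi-likelihood test on the recovered reads, which covers 59 members, called 4 higher at 18 h (Wnt3, Wnt5a, Wnt11 and Ror1) against 1.99% of 19210 genes, and 9 at 24 h against 2.81%, with 1.04% and 1.25% of genes called lower. The 9 were the 6 of the blocked limma fit together with Wnt3a, Wnt11 and Wnt16. Wnt16 was under the limma filter, with a 0 h mean of 0.0262 FPKM.

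Between 18 h and 24 h no member was called in either direction, with or without the block, when 0.0223% of genes were called in each fit. Before adjustment, limma gave 3 members higher at 24 h than at 18 h with p under 0.05 (Wnt5a, Frzb and Rspo1) and 1 lower (Lef1), where 3.11% and 2.48% of all genes were. DESeq2 and edgeR called none, and edgeR with the replicate block called Frzb higher, 1 of 59 members. That blocked edgeR fit had 7 members higher with p under 0.05 before adjustment, where 7.35% of all genes were. The share of all genes that it called was not counted.

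**Figure D2:**
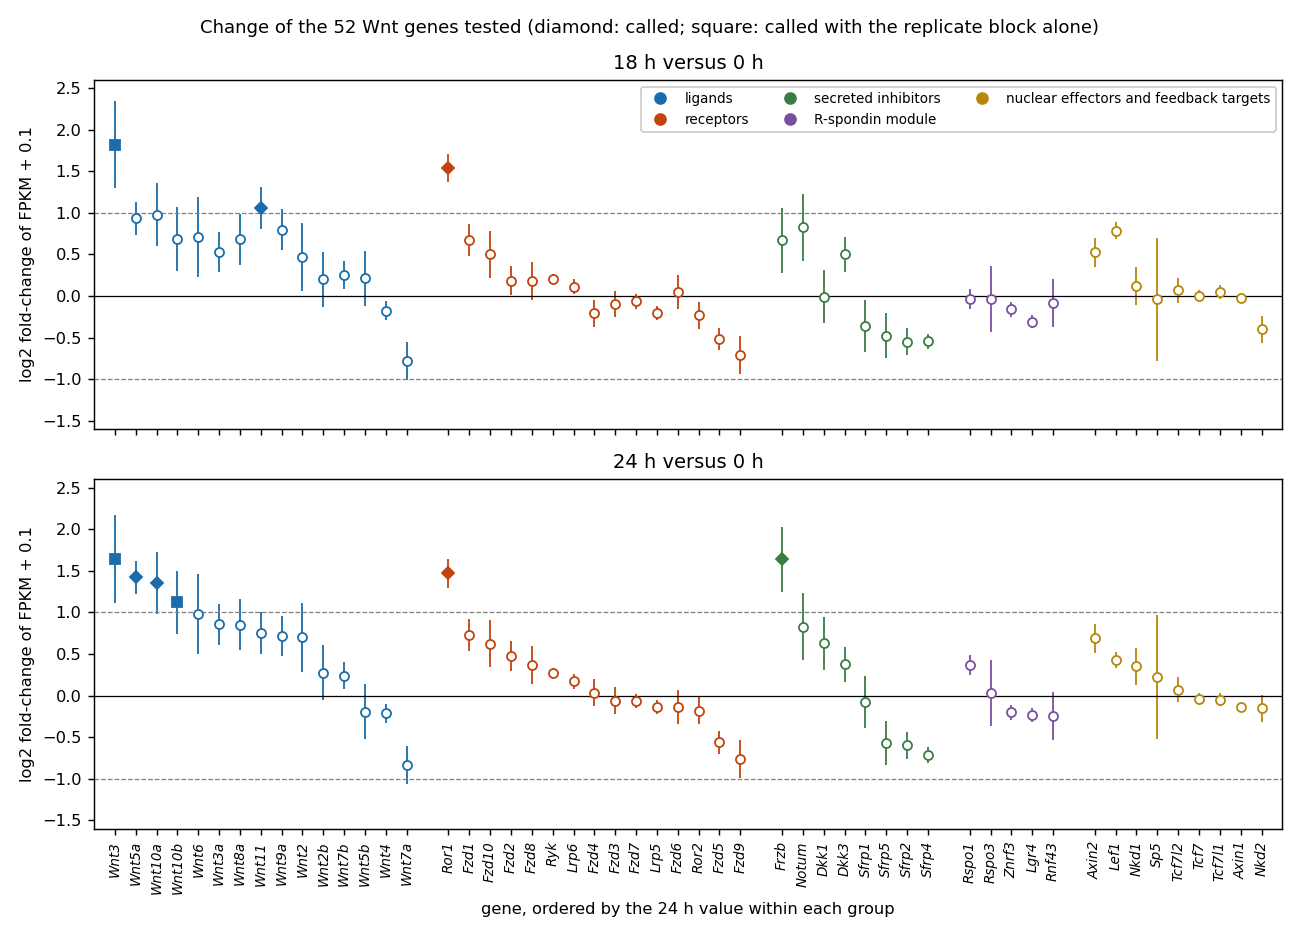
Log2 fold-change (log2FC) of FPKM + 0.1 at 18 h (top) and 24 h (bottom) compared with 0 h for the 52 genes tested, with bars of 1 standard error; diamonds are genes called, squares are genes called with the replicate block alone, open circles are not called and dashed lines mark a log2FC of 1 in either direction. All filled symbols lie above 1, and the lowest value is that of Wnt7a at 24 h, -0.83.

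Among the ligands, 13 of the 15 tested had a log2FC above 0 at 18 h and 12 had one at 24 h. Their median was 0.68 at 18 h and 0.75 at 24 h, and the median of all genes tested was -0.0030 and 0.0040. Wnt2 and Wnt11 are among these ligands only through their libraries with dox, so the filter favoured values above 0 for them. The summed level of the 19 ligands was 12.5, 15.6 and 16.4 FPKM in replicates 1, 2 and 3 at 0 h, 18.0, 23.3 and 27.6 FPKM at 18 h and 18.2, 22.7 and 28.5 FPKM at 24 h. Every library with dox was thus above every 0 h library, although most single ligands were not called. Most of the difference at 18 h lay in Wnt3, Wnt8a and Wnt9a. Their means were 1.20, 2.73 and 2.19 FPKM at 0 h and 4.56, 4.38 and 3.82 FPKM at 18 h.

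Wnt3 (ENSMUSG00000000125; chr11:103774150-103817957, plus strand on GRCm38), a canonical ligand needed to form the primitive streak, had the largest difference in FPKM of the ligands. Its level was 0.532, 1.57 and 1.5 FPKM in replicates 1, 2 and 3 at 0 h, 2.16, 4.53 and 7.0 FPKM at 18 h, and 2.02, 3.99 and 5.75 FPKM at 24 h. Both groups with dox lay above the 0 h group and overlapped each other, and replicate 1 was the lowest library at each time. Within a replicate number, Wnt3 at 18 h was 4.07, 2.88 and 4.68 times its 0 h level. The log2FC of 1.82 at 18 h (s.e. 0.527) had an adjusted p of 0.0663 by limma, and with the block the s.e. was 0.135 and the adjusted p 0.000569. At 24 h, the log2FC of 1.64 had a limma Padj of 0.0761 and a blocked Padj of 0.000646. edgeR without a block called Wnt3 at both times (adjusted p = 0.020 and 0.0292). Without replicate 1 at all times, limma called it at both times as well (Padj = 0.0343 and 0.0382), but not without replicate 2 or replicate 3, where Padj was up to 0.282 at 18 h and 0.284 at 24 h. With 1 library left out, its Padj was between 0.0433 and 0.206 at 18 h, called without replicate 1 at 18 h, and between 0.0536 and 0.233 at 24 h. No other ligand of at least 1 FPKM was called in either limma fit.

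Wnt5a (ENSMUSG00000021994; chr14:28504750-28527448, plus strand), the main ligand of the β-catenin-independent branch, had a higher level at each later time. It was at 0.166, 0.256 and 0.188 FPKM at 0 h, 0.414, 0.477 and 0.539 FPKM at 18 h and 0.654, 0.772 and 0.695 FPKM at 24 h. No group overlapped another. At 18 h its log2FC was 0.93 (s.e. 0.197; limma Padj = 0.0238), just under the fold limit. At 24 h the log2FC was 1.42 (limma Padj = 0.00348, blocked Padj = 0.00201), a call that held without any single library. The call was lost when replicate 2 or replicate 3 was left out at all times, with an adjusted p of up to 0.0862. An unnamed antisense gene, Gm2670, overlaps Wnt5a exons and stood at no more than 0.0147 FPKM.

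Wnt10a and Wnt10b are a pair of closely related canonical ligands, and both stayed under 1 FPKM. Wnt10a lies at chr1:74791516-74804179, plus strand, and Wnt10b at chr15:98770712-98778150, minus strand. Wnt10a had 6, 17 and 6 reads before dox, 15, 41 and 21 reads by 18 h and 23, 45 and 42 reads by 24 h. In FPKM, this was 0.102, 0.287 and 0.112 at 0 h and 0.367, 0.715 and 0.625 at 24 h. Its log2FC at 24 h was 1.35 (s.e. 0.375; limma Padj = 0.0480, blocked Padj = 0.00472). This call was lost without replicate 1 or 3 at 0 h, 1 or 3 at 18 h, or 2 or 3 at 24 h, where the adjusted p was up to 0.156, and without any 1 replicate number at all times, where it was up to 0.323. At 18 h the log2FC was 0.98 (limma Padj = 0.142, blocked Padj = 0.0179). Wnt10b had 5, 10 and 7 reads before dox, 8, 20 and 21 reads by 18 h and 12, 35 and 33 reads by 24 h, and replicate 1 was again the lowest at each time. At 24 h it had a log2FC of 1.12 (s.e. 0.381; limma Padj = 0.0910, blocked Padj = 0.0132).

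Wnt11 (ENSMUSG00000015957; chr7:98835112-98855195, plus strand), a ligand of the β-catenin-independent branch in gastrulation movements, was nearly silent before dox. It had 4, 5 and 4 reads before dox, 16, 24 and 21 reads by 18 h and 18, 12 and 17 reads by 24 h, which is 0.0405, 0.0504 and 0.0445 FPKM followed by 0.169, 0.233 and 0.210 FPKM and then 0.171, 0.114 and 0.151 FPKM. All libraries with dox were above all 0 h libraries. The log2FC was 1.06 at 18 h (s.e. 0.251; limma Padj = 0.0357, blocked Padj = 0.0308) and 0.75 at 24 h (limma Padj = 0.0863). The added 0.1 FPKM makes these values small, and edgeR on the reads gave 2.15 at 18 h and 1.65 at 24 h (adjusted p = 0.00332 and 0.0138). The limma call at 18 h was lost without any 1 of the 0 h or 18 h libraries, or without replicate 3 at 24 h, with an adjusted p of up to 0.119, and without any 1 replicate number at all times, with one of up to 0.205.

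Wnt8a was the ligand with the highest mean level. It stood at 1.82, 2.51 and 3.87 FPKM at 0 h, 3.61, 3.52 and 6.01 FPKM at 18 h and 3.92, 4.22 and 6.65 FPKM at 24 h, and the 0 h and 24 h groups did not overlap. The log2FC was 0.68 at 18 h (s.e. 0.308; limma Padj = 0.205, blocked Padj = 0.00467) and 0.85 at 24 h (limma Padj = 0.107, blocked Padj = 0.00169). Wnt9a, at 2.19±0.671 FPKM (mean±s.d., n=3) at 0 h and 3.63±0.850 FPKM at 24 h, had similar values of 0.80 and 0.72. Neither reached the fold limit.

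The other ligands were not called by limma. Wnt7a, a canonical ligand of the nervous system, was the ligand with the lowest fold-change: it was at 0.767, 0.788 and 0.899 FPKM at 0 h and at 0.360, 0.531 and 0.370 FPKM at 24 h, with a log2FC of -0.83 (s.e. 0.229; limma Padj = 0.0471). All libraries with dox were below all 0 h libraries for this gene. Wnt3a, which maintains the primitive streak and tail bud, was at 0.131±0.0383 FPKM at 0 h and 0.316±0.0435 FPKM at 24 h, with a log2FC of 0.86 (limma Padj = 0.0521, blocked Padj = 0.0372). Wnt6 had a log2FC of 0.98 at 24 h (limma Padj = 0.217, blocked Padj = 0.0464). Wnt4 and Wnt7b, both near 3 FPKM at all times, had values of -0.22 and 0.24. Wnt2, Wnt2b and Wnt5b were under 1 FPKM on average with adjusted p values of 0.302 or more at 24 h. Among the 4 ligands under the filter, Wnt16 had 2, 4 and 2 reads before dox and 18, 11 and 6 reads by 24 h, and Wnt8b had 7 reads or fewer in each library.

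Several of these ligands lie next to each other in the genome as neighbours with no gene between. Wnt9b and Wnt3 are 24.328 kb apart on chromosome 11 of GRCm38, Wnt3a and Wnt9a 16.175 kb apart on the same chromosome, Wnt10b and Wnt1 11.706 kb apart on chromosome 15, and Wnt6 and Wnt10a 6.193 kb apart on chromosome 1. The members of a pair differed in level. Wnt3 was at 3.92±1.87 FPKM at 24 h and Wnt9b at 0.0674±0.0358 FPKM, and Wnt10b was at 0.436±0.206 FPKM where Wnt1 was listed at 0. Wnt6 and Wnt10a both had values above 0 at 24 h, of 0.98 and 1.35 on the log2 scale.

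Promoter sequences are shown for called ligands, for Ror1 and for the feedback genes Axin2 and Lef1, as the 250 bases before the RefSeq start on GRCm38.p6, 5′ to 3′ on the gene's own strand. E2A binds the E-box, and 2 forms of it were searched on both strands. The first is CAGCTG, which reads the same on either strand. The next is CACCTG, which on the other strand reads as CAGGTG. TCF/LEF factors bind sites with the core CTTTGA, which on the other strand reads as TCAAAG. Capitals mark these 3 sequences. Where RefSeq gave several starts, the most upstream window is shown, and the last bases of the Wnt3 window lie in its annotated first exon.
Wnt3, chr11:103773925-103774174, plus strand: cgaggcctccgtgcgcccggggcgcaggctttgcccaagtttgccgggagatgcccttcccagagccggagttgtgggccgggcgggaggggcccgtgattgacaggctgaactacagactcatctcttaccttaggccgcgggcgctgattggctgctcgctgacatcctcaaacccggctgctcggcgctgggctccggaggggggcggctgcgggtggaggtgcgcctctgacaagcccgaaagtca
Wnt11, chr7:98834862-98835111, plus strand: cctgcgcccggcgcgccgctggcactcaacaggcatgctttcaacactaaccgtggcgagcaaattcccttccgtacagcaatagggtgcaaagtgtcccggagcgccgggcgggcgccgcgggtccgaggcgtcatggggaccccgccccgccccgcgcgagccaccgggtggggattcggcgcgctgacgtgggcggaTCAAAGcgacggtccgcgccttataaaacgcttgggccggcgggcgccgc
Wnt10b, chr15:98778151-98778400, minus strand: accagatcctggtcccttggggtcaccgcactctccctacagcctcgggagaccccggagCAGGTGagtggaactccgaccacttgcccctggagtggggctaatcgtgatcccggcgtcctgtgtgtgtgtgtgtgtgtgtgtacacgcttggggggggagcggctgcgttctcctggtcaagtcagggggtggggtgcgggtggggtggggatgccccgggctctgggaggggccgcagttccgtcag
Ror1, chr4:100095541-100095790, plus strand: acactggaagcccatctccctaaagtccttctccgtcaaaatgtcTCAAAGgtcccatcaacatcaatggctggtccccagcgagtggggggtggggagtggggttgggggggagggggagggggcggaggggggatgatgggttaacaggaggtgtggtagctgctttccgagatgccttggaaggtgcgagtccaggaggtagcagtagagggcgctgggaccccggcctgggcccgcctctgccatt
Axin2, chr11:108920099-108920348, plus strand: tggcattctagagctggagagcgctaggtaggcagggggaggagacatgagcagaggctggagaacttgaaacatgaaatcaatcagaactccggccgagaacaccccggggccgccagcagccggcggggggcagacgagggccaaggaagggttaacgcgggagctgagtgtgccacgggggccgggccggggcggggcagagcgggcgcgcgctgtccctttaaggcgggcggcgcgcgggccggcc
Lef1, chr3:131110047-131110296, plus strand: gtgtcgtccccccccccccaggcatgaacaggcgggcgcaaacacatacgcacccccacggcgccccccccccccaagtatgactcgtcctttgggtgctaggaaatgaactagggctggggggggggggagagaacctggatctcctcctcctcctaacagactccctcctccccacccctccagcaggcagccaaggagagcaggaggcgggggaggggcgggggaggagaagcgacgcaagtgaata
Of the 60 genes, 41 had a promoter entry, with 50 windows in all. Wnt5a and Wnt10a were among those without an entry. The window of Wnt10b holds CAGGTG 190 bases before the start, that of Wnt11 holds TCAAAG 50 bases before it and that of Ror1 holds TCAAAG 205 bases before it, whereas the windows of Wnt3, Axin2 and Lef1 shown hold none of these sequences. Of the other Lef1 windows, 1 holds CAGCTG 205 bases before its start and another holds the TCF/LEF core at 180 and 120 bases before its start. Both of these Lef1 windows lie inside the annotated gene. CAGCTG was in 12.0% of the members' windows and in 13.0% of all 32851 windows, CACCTG in 22.0% and 17.2%, and CTTTGA in 16% and 13.8%. Any E-box (CANNTG, which includes the first 2) was in 58.0% and 66.2%. These matches describe the letters in these windows and not binding.

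Among the receptors, Ror1 stood apart from the rest. Ror1 (ENSMUSG00000035305; chr4:100095791-100444765, plus strand) encodes a receptor tyrosine kinase-like protein that binds Wnt5a. It was at 0.706, 0.781 and 0.750 FPKM at 0 h, 2.13, 2.0 and 3.08 FPKM at 18 h and 2.01, 2.22 and 2.52 FPKM at 24 h. All 6 libraries with dox were above 2 times the level of any 0 h library. The log2FC was 1.54 at 18 h (s.e. 0.171; limma Padj = 0.00184) and 1.47 at 24 h (limma Padj = 0.00157). The call held without any single library, with a log2FC of 1.35 to 1.66 at 18 h and 1.39 to 1.55 at 24 h. Leaving out replicate 2 at all times gave an adjusted p of 0.0522 at 24 h. Its relative Ror2 was at 4.56±0.830 FPKM at 0 h and 4.0±0.669 FPKM at 24 h (log2FC -0.18; limma Padj = 0.494). Ryk, an atypical receptor without kinase activity, was at 20.8, 22.8 and 20.8 FPKM at 0 h and 26.0, 26.2 and 25.7 FPKM at 24 h, a change of 0.28 on the log2 scale (s.e. 0.0595; limma Padj = 0.0208).

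The Frizzled receptors were led by Fzd7, the receptor with the highest level in these cells. Fzd7 was at 27.5, 27.2 and 26.3 FPKM at 0 h, 28.6, 24.9 and 24.0 FPKM at 18 h and 28.7, 25.3 and 23.9 FPKM at 24 h, so the groups overlapped. Its log2FC was -0.066 at 18 h and -0.062 at 24 h (s.e. 0.0848; limma Padj = 0.667 and 0.675). Fzd2 followed at 15±3.03 FPKM at 0 h and 20.9±4.38 FPKM at 24 h, where replicate 3 was the highest library at each time and the log2FC of 0.47 had a limma Padj of 0.117 and a blocked Padj of 0.00206. Fzd1 and Fzd5 passed the p limit at 24 h in opposite directions. Fzd1 was at 0.869, 1.01 and 1.1 FPKM at 0 h and 1.30, 1.81 and 2.07 FPKM at 24 h (log2FC 0.73; limma Padj = 0.0448). Fzd5 was at 5.94, 4.86 and 5.85 FPKM at 0 h and 4.29, 3.35 and 3.56 FPKM at 24 h (log2FC -0.56; limma Padj = 0.0321). The groups of each of these 2 genes did not overlap.

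Fzd9 had the lowest fold-change of the receptors, with 0.953±0.0497 FPKM at 0 h and 0.524±0.0824 FPKM at 24 h (log2FC -0.76; limma Padj = 0.0600, blocked Padj = 0.0431). Fzd10, Fzd8, Fzd3, Fzd4 and Fzd6 had means between 0.760 and 3.15 FPKM and were not called. With the block, Fzd10 and Fzd8 had adjusted p values of 0.0455 and 0.0188 at 24 h, at log2FCs of 0.63 and 0.36. The co-receptors Lrp5 and Lrp6 stood at 11.1±0.891 and 6.27±0.357 FPKM at 0 h and at 10.1±0.748 and 7.08±0.660 FPKM at 24 h, with adjusted p values of 0.331 and 0.235 by limma. The median log2FC of the 15 receptors was 0.048 at 18 h and 0.036 at 24 h. Their summed level was between 94.2 and 105 FPKM at 0 h and between 102 and 106 FPKM at 18 h, which overlap. At 24 h it was between 108 and 116 FPKM.

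Of the 8 secreted inhibitors tested, 1 passed the p limit as higher at 24 h (Frzb) and 2 as lower (Sfrp2 and Sfrp4), where 6.52% and 5.11% of all genes passed it. Frzb (ENSMUSG00000027004; chr2:80411970-80447625, minus strand), also called Sfrp3, is a soluble Frizzled-like protein that binds Wnt ligands outside the cell, and it was the only inhibitor called in the limma fits. It had 3, 9 and 9 reads before dox, 9, 15 and 26 reads by 18 h and 26, 34 and 76 reads by 24 h, which is 0.0389, 0.116 and 0.128 FPKM, then 0.122, 0.186 and 0.332 FPKM and then 0.316, 0.412 and 0.862 FPKM. The 24 h group lay above the 0 h group, while the 18 h group overlapped both. Frzb passed the filter for testing only through its libraries with dox. Its log2FC was 0.67 at 18 h (s.e. 0.392; limma Padj = 0.325) and 1.64 at 24 h (limma Padj = 0.0299, blocked Padj = 0.00385). This call was lost without replicate 1 or 2 at 0 h, or 2 or 3 at 24 h, with an adjusted p of up to 0.101, and without any 1 replicate number at all times, with one of up to 0.176. At 24 h its mean of 0.530 FPKM was below those of Sfrp1, Sfrp2 and Sfrp4 and above that of Sfrp5, which are genes of the same family. Most of the promoter window of Frzb (chr2:80447397-80447646) lies inside the annotated gene, since this RefSeq start is downstream of the annotated 5′ end. This window holds both kinds of sequence, each inside the annotated gene, shown with 10 bases on each side.
Frzb, 17 bases before the start: tgggaaggcgCAGCTGcgagccaagg
Frzb, 95 bases before the start: ccctgaaaacTCAAAGccttctcgga

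Of the relatives of Frzb, Sfrp2 and Sfrp4 passed the p limit as lower at 24 h, and Sfrp1 and Sfrp5 did not pass it. Sfrp4 was at 7.33, 5.91 and 5.97 FPKM at 0 h, 4.43, 4.27 and 4.28 FPKM at 18 h and 3.97, 3.84 and 3.72 FPKM at 24 h. None of the groups overlapped, and the log2FC was -0.55 at 18 h and -0.72 at 24 h (s.e. 0.0946; limma Padj = 0.0111 and 0.00275), which is short of the fold limit. Sfrp2 was at 12.4, 12.0 and 8.59 FPKM at 0 h and 8.35, 7.23 and 6.0 FPKM at 24 h (log2FC -0.60; limma Padj = 0.0470), and an antisense gene that overlaps it, Gm26771, stood between 0.213 and 0.519 FPKM. Sfrp5 was at 0.480±0.156 FPKM at 0 h and 0.291±0.107 FPKM at 24 h (limma Padj = 0.198). Sfrp1 was the inhibitor with the highest mean, at 8.77, 12.1 and 13.5 FPKM at 0 h, 5.69, 9.71 and 12.2 FPKM at 18 h and 7.17, 13.1 and 13.1 FPKM at 24 h. Its replicate 1 was the lowest at each time, and its log2FC was -0.36 at 18 h (s.e. 0.313; limma Padj = 0.514, blocked Padj = 0.0385) and -0.074 at 24 h (limma Padj = 0.906).

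The remaining inhibitors were Notum, Dkk1, Dkk2, Dkk3 and Wif1. Notum, an enzyme that removes the lipid from Wnt proteins and is a feedback target, was at 6.48, 3.63 and 2.10 FPKM at 0 h, 9.79, 4.92 and 5.97 FPKM at 18 h and 9.19, 4.75 and 6.60 FPKM at 24 h. The groups overlapped, yet each replicate number had more Notum with dox than without. The log2FC was 0.83 at both times (limma Padj = 0.238 and 0.215, blocked Padj = 0.0414 and 0.0361). Notumos, an antisense gene that overlaps it, stood between 0.0151 and 0.252 FPKM. Dkk1, a blocker of Lrp5 and Lrp6 and another feedback target, was at 0.194±0.0379 FPKM at 0 h and 0.370±0.165 FPKM at 24 h (log2FC 0.63; limma Padj = 0.230). Dkk3 was at 0.683±0.105 and 0.917±0.128 FPKM (limma Padj = 0.272). Dkk2 and Wif1 had at most 12 and 8 reads in any library and were not tested by limma. Dkk2 had 0, 1 and 2 reads before dox, at or under the floor of 3 reads, and 4, 4 and 12 reads by 18 h. edgeR with the replicate block called it higher at 18 h (edgeR adjusted p = 0.0250), a call that rests on its libraries with dox. Neither edgeR without the block (edgeR adjusted p = 0.123) nor DESeq2 called it.

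The R-spondin module sets how many Frizzled receptors stay on the cell surface: R-spondins bind Lgr receptors and take away the ubiquitin ligases Rnf43 and Znrf3, which remove Frizzled proteins. No gene of this module was called, and the median of the 5 tested was -0.085 at 18 h and -0.20 at 24 h on the log2 scale. Lgr4 led the module, at 15.1, 17.3 and 14.0 FPKM at 0 h, 12.5, 12.6 and 12.3 FPKM at 18 h and 13.9, 13.1 and 12.3 FPKM at 24 h. All libraries with dox lay below all 0 h libraries, and its log2FC was -0.31 at 18 h (s.e. 0.0827; limma Padj = 0.0537, blocked Padj = 0.0178) and -0.24 at 24 h (limma Padj = 0.10, blocked Padj = 0.0375). Lgr5 had 17 reads or fewer in each library. Znrf3 was at 4.16±0.206 FPKM at 0 h and 3.61±0.344 FPKM at 24 h, and Rnf43 was at 0.416±0.129 and 0.330±0.0841 FPKM. Rspo1 was at 2.21, 2.21 and 1.95 FPKM at 0 h, 1.78, 2.19 and 2.24 FPKM at 18 h and 2.82, 2.59 and 2.90 FPKM at 24 h, so the 24 h group lay above both earlier groups (24 h compared with 0 h, limma Padj = 0.0761). Rspo2 and Rspo3 had 20 reads or fewer in each library.

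Most nuclear effectors were close to their 0 h level at both later times. Tcf7, the TCF/LEF factor with the highest level, was at 31.3, 33.6 and 37.2 FPKM at 0 h, 34.8, 32.6 and 34.7 FPKM at 18 h and 32.9, 33.3 and 32.7 FPKM at 24 h. The groups overlapped, and the log2FC was 0.0045 at 18 h and -0.042 at 24 h (s.e. 0.0668; limma Padj = 0.981 and 0.726). Tcf7l1, the repressive member of this family in ESCs, was at 16.4±1.41 FPKM at 0 h and 15.8±0.956 FPKM at 24 h, and Tcf7l2 was at 1.18±0.133 and 1.25±0.141 FPKM. Axin1, the scaffold of the destruction complex, was at 24.2±1.27 FPKM at 0 h and 21.9±0.182 FPKM at 24 h (log2FC -0.14; limma Padj = 0.119). None of these 4 genes passed the p limit in either limma fit.

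Lef1 differed from the other TCF/LEF factors. Lef1 is both a DNA-binding partner of β-catenin and a target of the pathway. It was at 2.59, 2.83 and 2.64 FPKM at 0 h, 4.92, 4.21 and 4.98 FPKM at 18 h and 3.93, 3.36 and 3.65 FPKM at 24 h, and none of the 3 groups overlapped. The log2FC was 0.78 at 18 h (s.e. 0.10; limma Padj = 0.00331) and 0.43 at 24 h (limma Padj = 0.0276), under the fold limit at both times. Its value at 24 h compared with 18 h was -0.36 (limma Padj = 0.812).

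The feedback targets differed among themselves. Axin2, the most widely used target of canonical Wnt signalling, was at 2.03, 2.38 and 2.10 FPKM at 0 h, 2.86, 2.80 and 3.92 FPKM at 18 h and 2.96, 3.42 and 4.41 FPKM at 24 h. All libraries with dox were above all 0 h libraries. The log2FC was 0.52 at 18 h (s.e. 0.172; limma Padj = 0.0976, blocked Padj = 0.0308) and 0.69 at 24 h (limma Padj = 0.0351). Sp5, a transcription factor induced by Wnt in ESCs, was at 0.459, 1.01 and 1.40 FPKM at 0 h, 0.271, 0.994 and 2.01 FPKM at 18 h and 0.431, 0.858 and 2.82 FPKM at 24 h. Its replicate numbers differed more than its time points, and it was not called (log2FC 0.22 at 24 h, s.e. 0.741; limma Padj = 0.879, blocked Padj = 0.560). Nkd1 and Nkd2, inhibitors of Dishevelled, were at 0.933±0.326 and 1.74±0.128 FPKM at 0 h and at 1.18±0.116 and 1.58±0.349 FPKM at 24 h, with adjusted p values of 0.338 and 0.575 by limma. At 18 h Nkd2 was at 1.29±0.0859 FPKM, below every 0 h library (limma Padj = 0.158, blocked Padj = 0.0464). Of the feedback targets, Axin2 and Lef1 passed the p limit as higher at 24 h, where 6.52% of all genes did. The targets were not tested against each other. Notum, Dkk1, Znrf3, Rnf43, Sp5, Nkd1 and Nkd2 did not pass this limit by limma without the block. Axin2 no longer passed it without any 1 of the 0 h libraries or replicate 2 or 3 at 24 h (Padj up to 0.116), and Lef1 without replicate 1 or 3 at 0 h or any 1 of the 24 h libraries (up to 0.0880). Without any 1 replicate number at all times neither passed it, with Padj up to 0.173 for Axin2 and 0.206 for Lef1.

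**Figure D3:**
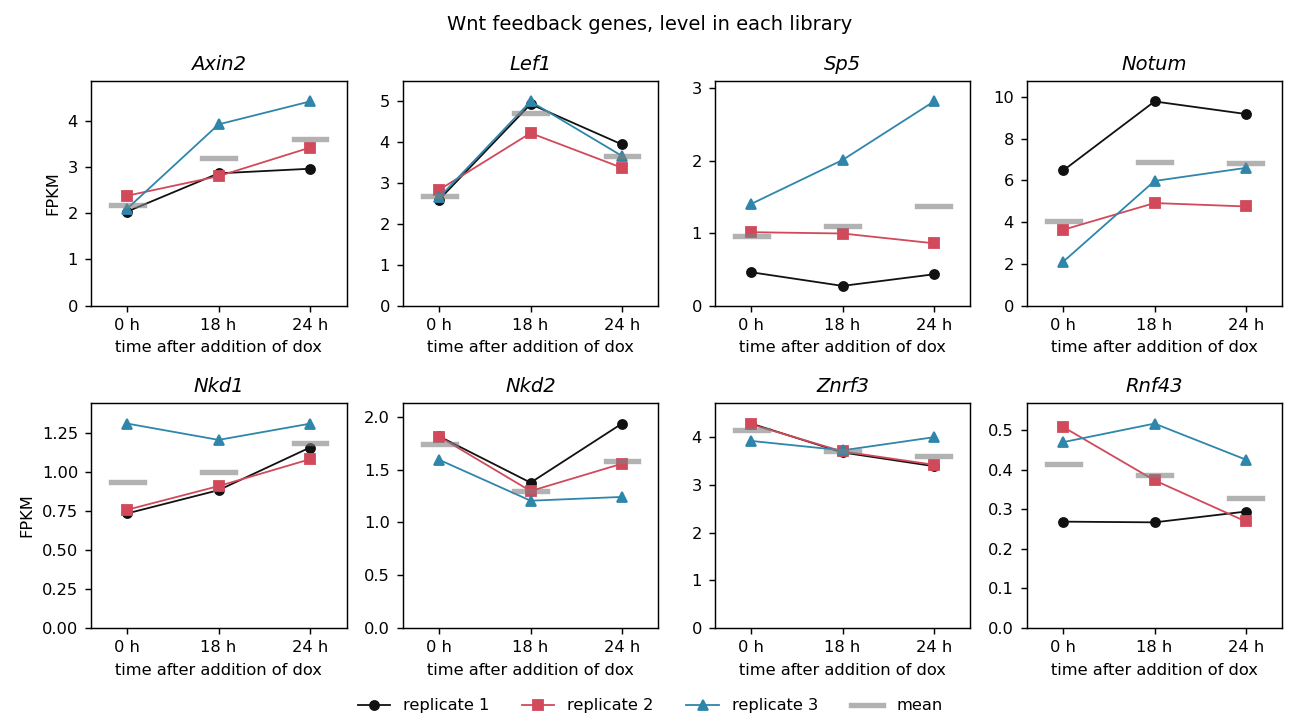
FPKM of 8 feedback genes by time with dox (h), with 1 line per replicate number and a grey bar at the mean. Axin2 and Lef1 are above their 0 h levels in all 6 libraries with dox, whereas the 3 replicates of Sp5 stay apart at every time, from 0.431 to 2.82 FPKM at 24 h.

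Past the fold limit the list was short, but more members passed the p limit alone. At 18 h, 4 of the 52 were higher (Wnt5a, Wnt11, Ror1 and Lef1) against 4.27% of all genes and 1 was lower (Sfrp4) against 3.72%. Wnt5a at 18 h reached a limma Padj of 0.0918 with 1 library left out, while Lef1 and Sfrp4 stayed within the limit. Leaving out a replicate number at all times took Wnt5a, Lef1 and Sfrp4 up to 0.231, 0.113 and 0.142. At 24 h, 8 were higher (Wnt5a, Wnt10a, Fzd1, Ror1, Ryk, Frzb, Axin2 and Lef1) against 6.52% and 4 were lower (Wnt7a, Fzd5, Sfrp2 and Sfrp4) against 5.11%. Of these genes, Wnt11 at 18 h and Frzb at 24 h passed the filter for testing only through their libraries with dox. With 1 library left out, Sfrp4 stayed within the p limit at 24 h (limma Padj up to 0.0166). Wnt7a, Fzd1, Fzd5, Ryk and Sfrp2 then reached 0.144, 0.152, 0.115, 0.0728 and 0.155. Without a replicate number at all times, Sfrp4 too passed beyond the limit at 24 h (limma Padj up to 0.0764). With the block, 12 were higher and 7 lower at 18 h against 10.8% and 10.7% of all genes, and 18 were higher and 6 lower at 24 h against 13.6% and 12.5%. Between 24 h and 18 h none passed, against 0.0223% of genes without the block and 0.0446% with it. Both comparisons with 0 h share the same 3 untreated libraries.

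The overlap of the groups was also counted, without a test. At 18 h, 11 of the 52 had all libraries above all 0 h libraries and 10 had all below, where 14.4% and 13.7% of all genes did so. At 24 h, 16 lay above and 7 below, where 16.7% and 14.6% of all genes did so. The 16 were Wnt3, Wnt3a, Wnt5a, Wnt8a, Wnt10a, Wnt10b, Wnt11, Fzd1, Ror1, Ryk, Dkk1, Dkk3, Frzb, Rspo1, Axin2 and Lef1, so 7 of them were ligands. Wnt11 and Frzb passed the filter for testing only through their libraries with dox. The 7 that lay below were Wnt7a, Fzd5, Fzd9, Sfrp2, Sfrp4, Axin1 and Lgr4.

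**Figure D4:**
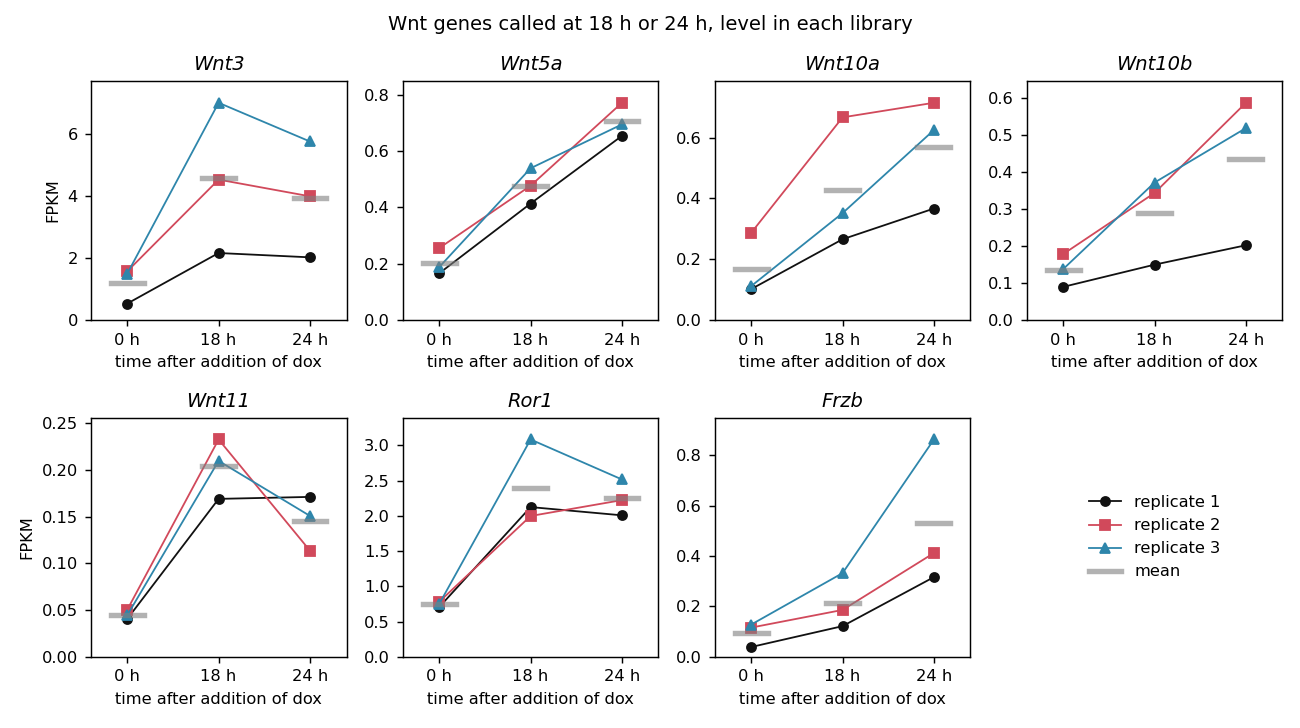
FPKM of the 7 genes called with or without the replicate block, by time with dox (h), with 1 line per replicate number and a grey bar at the mean. Ror1 and Wnt3 are near their highest level by 18 h, whereas Wnt5a and Frzb are highest at 24 h in all 3 replicates.

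Outside these 60 genes, a list of 77 other genes of Wnt secretion, transduction, planar polarity and response was examined, of which 72 were tested. At 18 h, 2 were called higher (Draxin and Cdx2) against 1.33% of all genes and 1 lower (Cdx4) against 0.724%. At 24 h, 5 were called higher (Sost, Apc2, Msx2, Draxin and Cdx2) against 2.07% of all genes and 1 lower (Cdx4) against 0.836%. The block added Msx1, a homeobox gene, at both times, for 3 and 6 called higher against 1.71% and 2.34% of all genes. Msx1 was at 0.278 FPKM on average at 0 h and 0.649 FPKM at 24 h, with a log2FC of 1.04 at 18 h and 1.07 at 24 h (limma Padj = 0.102 and 0.0794, blocked Padj = 0.0209 and 0.0158). The median log2FC of the list was 0.093 at 18 h and 0.16 at 24 h. Draxin and Sost encode secreted antagonists that bind Lrp co-receptors. Draxin was at 0.274, 0.144 and 0.239 FPKM at 0 h and 0.954, 1.44 and 1.77 FPKM at 24 h (log2FC 2.21; limma Padj = 0.00408). Sost had 1, 1 and 0 reads before dox, at or under the floor of 3 reads, and 6, 11 and 21 reads by 24 h (limma Padj = 0.0352). It passed the 0.1 FPKM filter through its libraries with dox, and its call was lost in 7 of the 9 fits without 1 library, those other than replicate 1 at 18 h or 24 h, with an adjusted p of up to 0.117, and without any 1 replicate number at all times, with one of up to 0.222. Apc2, a relative of the destruction complex protein Apc, was at 0.287 FPKM on average at 0 h and 0.711 FPKM at 24 h (log2FC 1.08; limma Padj = 0.0111), and its call was lost without replicate 1 at 0 h (log2FC 0.95) or replicate 3 at 24 h (limma Padj = 0.0505), and without any 1 replicate number at all times (up to 0.119).

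The homeobox genes Cdx2 and Cdx4, which respond to Wnt in the posterior embryo, went in opposite directions. Cdx2 was at 0.241, 0.516 and 0.671 FPKM at 0 h and 2.82, 3.33 and 4.17 FPKM at 24 h (log2FC 2.68; limma Padj = 0.00117), and Cdx2 is also a trophectoderm factor. Cdx4 was at 1.62, 2.67 and 2.67 FPKM at 0 h and 0.481, 0.679 and 0.730 FPKM at 24 h (log2FC -1.71; limma Padj = 0.00499). Msx2 was at 0.241 FPKM on average at 0 h and 0.709 FPKM at 24 h (log2FC 1.23; limma Padj = 0.0116). With a replicate number left out at all times, the 24 h call of Msx2 was lost for each number (adjusted p of up to 0.131), those of Draxin and Cdx4 without replicate 2 or 3 (up to 0.108 and 0.111) and that of Cdx2 without replicate 2 (0.0547). At 18 h, Draxin, Cdx2 and Cdx4 lost their calls without replicate 2 or 3 at all times (up to 0.188, 0.104 and 0.228). With 1 library left out, only Draxin (without replicate 2 or 3 at 18 h, up to 0.0646) and Cdx4 (without replicate 3 at 0 h or 18 h, up to 0.0698) of these 4 lost a call, both at 18 h. Myc and Ccnd1, known targets that promote proliferation, passed the p limit as lower at both times. Myc was at 25.2±1.3 FPKM at 0 h and 16±0.729 FPKM at 24 h (log2FC -0.65; limma Padj = 0.00162), and Ccnd1 at 28.1±4.55 and 16.5±1.79 FPKM (log2FC -0.76; limma Padj = 0.0104). Ctnnb1, which encodes β-catenin, was at 178 FPKM at 0 h and 186 FPKM at 24 h (limma Padj = 0.442), and the primitive streak gene T, a canonical target, was at 1.27 FPKM at 0 h and 0.636 FPKM at 24 h (limma Padj = 0.217, blocked Padj = 0.00713). The ligand secretion genes Porcn and Wls were not called.

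Marker genes of other cell types moved with the induction, and their part in the Wnt results was not tested. Of 7 early neural markers 5 were tested and 3 were called higher at 24 h (Sox1, Foxd4 and Neurod4), where 2.07% of all genes were, with Neurog2 at no more than 0.0541 FPKM and the summed level, mostly Nes, between 29.2 and 43.6 FPKM at 0 h and between 40.4 and 59.1 FPKM at 24 h. Of 7 trophectoderm markers 6 were tested and 3 were called higher at 24 h (Cdx2, Krt8 and Hand1), against the same 2.07%. Elf5 was at no more than 0.0357 FPKM. The summed level, mostly Krt8 and Krt18, was between 325 and 378 FPKM at 0 h and between 625 and 824 FPKM at 24 h. None of the markers of primitive streak and mesoderm, primitive endoderm or fibroblasts was called by limma in either direction. Foxd4 and Neurod4 had a 0 h mean under 0.1 FPKM and passed the filter through their libraries with dox. The summed level of the 6 streak and mesoderm markers was between 2.76 and 3.94 FPKM at 0 h and between 2.35 and 3.23 FPKM at 24 h, and Mesp1 was at no more than 0.0629 FPKM.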

How the data were processed

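RNA-seq was analysed for 9 libraries of inducible ESCs, 3 replicates each without dox and after 18 h or 24 h of dox; the sample titles and treatment entries gave the groups, and the treatment protocol in the labels names 24 h and a later time, while the study describes the times of the titles. The authors made polyadenylated stranded libraries (TruSeq Stranded mRNA), trimmed reads with cutadapt 1.9, aligned them to GRCm38 from Ensembl with STAR and tested genes with edgeR 3.16.5; the counting tool and its use of strand were not given in the sources used here, so genes that overlap on opposite strands are uncertain. The authors deposited FPKM values for 47729 genes, of which 19906 were 0 in all libraries, and a filtered table whose per-library signal is CPM on effective library sizes, covering 19210 genes. The authors' columns of fold-changes, p-values and false discovery rates were not used. Dividing the deposited signal by the value of 1 read gave whole reads for 100% of values (tolerance 0.02), 22028363 to 26471569 per library; these cover counting error only, and a gene at 3 reads or fewer was treated as at the floor.

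Members were matched by gene name. The members and lists were chosen with earlier results of these data known. The main test was limma 3.58.1 in R 4.3.3 (lmFit, eBayes with a trend) on log2(FPKM+0.1), fitted to all 9 libraries and 17951 genes averaging at least 0.1 FPKM, with Benjamini–Hochberg adjustment over all of them; this scale understates the change of low genes. Alternatives were other pseudocounts and filters, quantile normalization, median centring, no minimum fold-change, only the time points compared, edgeR 4.0.16, DESeq2 1.42.0, a replicate block and each library left out; leaving out a replicate number at all times and blocked fits with no minimum fold-change were added after seeing the data. Deviations from the time-point means of libraries with the same replicate number correlated at r between 0.211 and 0.548 over 11893 genes, and those with different numbers between -0.399 and 0.110, so the numbers were taken to pair the libraries; the study describes the replicates as 3 biological experiments. With 3 libraries against 3, an exact permutation test cannot give a p below 0.1, so none was used. Genes named with full values were those called with or without the block and the gene of highest mean FPKM in each group; of the other Wnt genes, those called were named, and further genes were named after their values were seen. Coordinates are from GENCODE M21, and promoter sequences from RefSeq (GRCm38.p6). The scripts were tested on simulated data. Tables and figures were made in Python 3.11.15 with pandas 2.3.3 and matplotlib 3.10.9.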

Additional observations from a re-analysis of the deposited data

How the results depend on the processing

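None of the members recomputed singly, nor Draxin, Cdx2, Cdx4, Sost, Apc2, Msx1 or Msx2, had a call that changed sign under the alternatives run, and the Tcf3 call held in all of them. The count of members called higher, 2 at 18 h and 4 at 24 h, became 0 at both times with a pseudocount of 1, 1 at both when genes had to average 1 FPKM, 4 and 8 with no minimum fold-change, 1 and 2 with only the time points compared, 4 and 9 with edgeR, and 4 and 7 with DESeq2. Quantile normalization gave 1 at 18 h and no filter gave 2 at 24 h. With the replicate block the counts were 3 and 6. Adding no minimum fold-change to the block gave 12 and 18, against 10.8% and 13.6% of all genes. edgeR with the replicate block gave 8 and 10, and 19 and 21 with no minimum fold-change as well. The share of all genes called under DESeq2 and under edgeR with the block was not counted. Before adjustment, 22 and 27 of 59 members were higher with p under 0.05 in edgeR with the block, where 18.9% and 21.3% of all genes were. With DESeq2, 15 and 19 members were, where 12.2% and 13.7% of all genes were. Under the block calls rose among all genes too, so these counts alone are not a result about the members or the other Wnt genes. Leaving out 1 library or 1 replicate number gave 1 to 3 at 18 h and 0 to 5 at 24 h: 1 at 18 h without replicate 1 at 0 h, 2 or 3 at 18 h, 3 at 24 h, or replicate 2 or 3 at all times, and at 24 h 2 without replicate 1 at 0 h or 2 or 3 at 24 h, 0 without replicate 2 at all times and 1 without replicate 3. The count of members lower, 0 at both times, became 1 and 4 with no minimum fold-change, 7 and 6 with the block added and 9 and 8 with edgeR, the block and no minimum fold-change. Between 24 h and 18 h, edgeR with the replicate block called 1 member higher, and 2 higher and 1 lower with no minimum fold-change. For the other Wnt genes, of which 2 were called higher at 18 h and 5 at 24 h, the counts were 1 and 1 with a pseudocount of 1 or genes averaging 1 FPKM, 5 and 11 with no minimum fold-change, 5 at 18 h with edgeR, 6 and 8 with DESeq2, 7 and 8 with edgeR and the replicate block, 18 and 23 with the block and no minimum fold-change, 21 and 29 with edgeR added, and 0 to 4 and 0 to 6 with 1 library or replicate number left out (4 at 18 h without replicate 2 at 0 h, 1 without replicate 2 or 3 at 18 h, and 3 at 24 h without replicate 1 at 0 h or 3 at 24 h). Those called lower, 1 at each time, became 0 at 18 h with a pseudocount of 1 or only the time points compared, 7 and 6 with no minimum fold-change, 2 at 24 h with edgeR and the replicate block, 14 and 11 with the block and no minimum fold-change and 16 and 15 with edgeR added, and 0 to 1 with 1 library or replicate number left out (0 at 18 h without replicate 3 at 0 h or 18 h, and 0 at both times without replicate 2 or 3). The cause of these differences was not tested, except that a pseudocount of 1 shrinks fold-changes of genes under 1 FPKM by construction. Most called members lie under 1 FPKM, and the part of low read numbers in these differences was not tested.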

Other observations

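The replicate numbers ordered these genes in a recurrent way. Replicate 1 was the lowest of the 3 libraries at all 3 times for 19 of the 52 members tested (36.5%), among them Wnt3, Wnt10b, Sfrp1 and Sp5, and for 14.7% of all genes tested. Replicate 3 was the highest at all 3 times for 12 members (23.1%), and for 10.2% of all genes. The order was reversed for others. Replicate 1 was the highest at all 3 times for 7 members (13.5%), Notum and Sfrp2 among them, and for 14.3% of all genes. Replicate 3 was the lowest for 5 members (9.62%) and for 7.95% of all genes. For Sp5 the level in replicate 3 was 3.05 times that in replicate 1 at 0 h, 7.42 times at 18 h and 6.53 times at 24 h, and for Wnt3 it was 2.81, 3.24 and 2.85 times. Summed marker levels differed between replicate numbers too. That of 6 fibroblast markers was 6.98, 11.8 and 14.6 FPKM in replicates 1, 2 and 3 at 0 h and 6.07, 9.69 and 10.6 FPKM at 24 h, and that of 7 early neural markers was 29.2, 43.6 and 37.7 FPKM at 0 h and 40.4, 57.5 and 59.1 FPKM at 24 h. That of 7 ESC markers was 769, 554 and 595 FPKM at 0 h and 634, 473 and 515 FPKM at 24 h. Replicate 1 was the lowest in the first 2 lists and the highest in the ESC list at all 3 times. The part of any of these differences between replicates in the results was not tested.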
